A study of Homo sapiens with 6 samples.

Results

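FAM111A and FAM111B are adjacent paralogous genes of chromosome 11 that encode proteins with a trypsin-like serine protease domain. Both were lower in a mutant HCT116 line than in its parental line, FAM111B by 38.3-fold and FAM111A by 4.36-fold. The 2 genes were taken by name from the 18417 genes that had a probe set annotated to exactly 1 gene symbol, and each had 1 such probe set (7940147 for FAM111B, 7940153 for FAM111A). They were selected on the mutant minus parental differences of these same arrays, which are therefore given as a description, with no test.

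HCT116 is an established human colorectal carcinoma cell line, kept here in McCoy's medium with serum. The 6 Affymetrix arrays comprise 3 of a derived mutant line with altered DNA methylation and 3 of the parental line. Which gene was mutated is not stated in the labels, nor whether more than 1 clone was used, so an effect of the mutation and of other clonal differences cannot be told apart. Values are log2 expression from robust multi-array average (RMA), and array medians lay between 6.88 and 6.93.

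FAM111A protein binds PCNA, the sliding clamp of DNA replication, and its protease activity helps replication forks pass proteins that are crosslinked to DNA. It is also a host factor that restricts certain mutant polyomaviruses and poxviruses, and mutations in it cause Kenny-Caffey syndrome and gracile bone dysplasia. FAM111B is less well studied. Its transcript varies with the cell cycle, and mutations in it cause hereditary fibrosing poikiloderma.

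The RefSeq promoter table (GRCh38.p14) matched 1 of the 2 genes, FAM111A, at 2 start sites. Both windows are shown because FAM111A was lower in a line described as having altered DNA methylation. Each runs 5′ to 3′ on the plus strand over 300 bases, from 250 before to 50 after the start. The first lies at chr11:59142606-59142905 and the second at chr11:59144612-59144911.
FAM111A window 1: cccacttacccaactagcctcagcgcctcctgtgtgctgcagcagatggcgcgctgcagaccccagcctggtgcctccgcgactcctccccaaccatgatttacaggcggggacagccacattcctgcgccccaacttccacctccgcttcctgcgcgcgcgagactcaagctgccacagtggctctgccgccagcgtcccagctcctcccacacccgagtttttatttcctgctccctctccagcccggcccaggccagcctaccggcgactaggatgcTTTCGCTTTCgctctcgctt
FAM111A window 2: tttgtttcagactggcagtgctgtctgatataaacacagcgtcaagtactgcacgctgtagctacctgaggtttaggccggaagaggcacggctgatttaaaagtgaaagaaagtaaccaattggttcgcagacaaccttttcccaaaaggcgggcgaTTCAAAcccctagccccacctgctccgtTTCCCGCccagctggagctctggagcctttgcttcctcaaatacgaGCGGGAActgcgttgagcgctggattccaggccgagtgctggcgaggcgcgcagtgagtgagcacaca
Capitals mark matches to 3 motifs on either strand, which were chosen after the sequences were seen and do not overlap one another. Window 1 holds 1 match to the interferon-response type motif (GAAA, any 2 bases, then GAAA), on the minus strand, which 3.57% of all 35116 RefSeq windows contain. Window 2 holds 2 matches to the E2F-type motif TTCCCGC, found in 6.55% of windows, and 1 match to the motif TTTGAA of the cell cycle genes homology region, found in 15.2%. The CCAAT box, which is not marked, occurs in window 2 once on each strand, the pair overlapping by 2 bases, and in 34.6% of all windows. Window 1 has 21 CpG dinucleotides and window 2 has 17, where the median window has 14. Of all windows, 60.5% have fewer than window 1 and 54.0% fewer than window 2, so neither stands out. No methylation values were analysed here, and a match to a motif shows no binding.

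FAM111B had log2 values of 3.85, 4.09 and 3.54 on the 3 mutant arrays, against 8.95, 9.08 and 9.22 on the parental arrays. The groups did not overlap, and the highest mutant value stood 4.87 below the lowest parental one. Mean levels were 3.83 ± 0.28 in mutant and 9.09 ± 0.13 in parental cells (log2, SD, n = 3 each), a difference of -5.26. On the mutant arrays only 8.99% to 14.8% of all probe sets were dimmer than that of FAM111B, against 73.4% to 76.0% on the parental arrays. RMA compresses differences at the dim end of the range, so the fitted size may understate the change. In such bulk samples, fewer cells with the transcript and less of it per cell cannot be told apart.

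FAM111A had log2 values of 7.25, 7.09 and 6.99 on the mutant arrays, against 9.17, 9.18 and 9.35 on the parental arrays. Here too the groups did not overlap, with a gap of 1.92 between the highest mutant and the lowest parental value. The means were 7.11 ± 0.13 in mutant and 9.23 ± 0.10 in parental cells (log2, SD, n = 3 each), a difference of -2.12. On the mutant arrays 50.7% to 54.1% of all probe sets were dimmer than that of FAM111A, against 75.7% to 77.4% on the parental arrays. Both members were therefore lower without overlap between groups, which 16.5% of all 33297 probe sets also were. Since the pair was chosen for this contrast, nothing is read from that share.

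**Figure D1:**
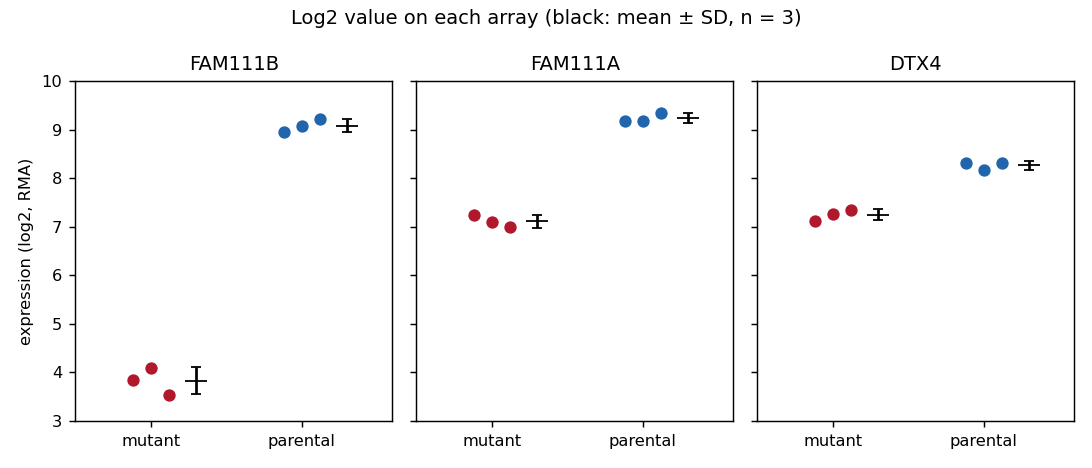
Log2 RMA expression (vertical axis) of FAM111B, FAM111A and the next measured gene, DTX4, on each of the 3 mutant arrays (red) and 3 parental arrays (blue), with the mean and SD of each group in black. FAM111B lies between 3.54 and 4.09 on the mutant arrays and between 8.95 and 9.22 on the parental ones, while FAM111A lies between 6.99 and 7.25 and between 9.17 and 9.35; the groups do not overlap in any of the 3 genes.

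The paralogs moved the same way but by unequal amounts. Relative to the parental mean, FAM111B stood at -5.24, -5.00 and -5.55 on the 3 mutant arrays, and FAM111A at -1.98, -2.15 and -2.25. The change of FAM111B minus that of FAM111A was -3.25, -2.85 and -3.30 on these arrays and -3.14 on average. The mutant values of FAM111B lie at the dim end of the range, so this gap too may be understated. The range of either gene within a group was at most 0.55 (FAM111B in mutant cells). The gaps on the 3 mutant arrays share the same parental means. The pair was chosen for this contrast, so the gaps are given as a description. Mutant FAM111B values were the more scattered: their SD was larger than that of 91.7% of probe sets in mutant cells, against 69.9% for FAM111A. These shares run over probe sets of all levels, so they are not matched for the dimness of FAM111B in mutant cells. Levels of the 2 genes cannot be set against each other, because different probe sets differ in brightness at equal RNA amounts.

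Among all 18417 genes FAM111B had the decrease of rank 8 and FAM111A that of rank 72. In all, 11 genes were lower in mutant cells by at least 5 log2 units and 85 by at least 2, whereas 0 and 19 genes were higher by as much. These ranks restate the contrast by which the pair was chosen.

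The genes next to the pair were examined in RefSeq order, without regard to their values. Between FAM111B and FAM111A lie 2 annotated genes, the divergent transcript FAM111A-DT and the pseudogene LOC100422399, and neither has a single-symbol probe set. The next measured gene after FAM111A, DTX4, encodes a Deltex ubiquitin ligase linked to Notch signalling. DTX4 had log2 values of 7.12, 7.27 and 7.34 on the mutant arrays, against 8.31, 8.16 and 8.32 on the parental arrays. It fell by 1.02 without overlap between groups (limma, Benjamini-Hochberg adjusted p = 0.000541 over all probe sets; 5.69e-05 to 0.00937 over its alternatives). FAM111B, FAM111A and DTX4 are thus consecutive measured genes, each lower in mutant cells, in this order of size.

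No decrease was called in the next 3 measured genes on either side of this stretch. On the far side of DTX4, MPEG1, a pore-forming protein of macrophages, differed by 0.16 (adjusted p = 0.446), and the olfactory receptor genes OR5AN1 and OR5A2 by -0.29 and 0.17 (adjusted p = 0.169 and 0.293). On the FAM111B side, the glycine acyltransferase genes GLYATL1, GLYATL2 and GLYAT differed by 0.03, 0.00 and -0.09 (adjusted p = 0.938, 0.999 and 0.613). All 6 had a mean log2 under 7, between 3.94 for OR5AN1 and 5.89 for MPEG1. A small decrease can be called at such levels, as in OR5B17 (mean log2 4.63, difference -0.41) further out on the FAM111B side, but a larger one has less room. These 6 genes are therefore not taken to bound the stretch of lower genes. LPXN, which encodes the adaptor leupaxin and is the fourth measured gene on that side, rose by 0.53 (adjusted p = 0.0138), with means of 7.38 ± 0.13 in mutant and 6.86 ± 0.14 in parental cells (log2, SD, n = 3 each; limma). That call was lost without mutant replicate 2, without parental replicate 2 and with the replicate block (adjusted p up to 0.0689).

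Of the 30 nearest measured genes, 15 on each side, 2 rose and 2 fell, or 13.3%. Over all 18417 genes 25.9% were called, and over all probe sets 18.5%. The calls were DTX4, the dim olfactory receptor gene OR5B17 (-0.41, adjusted p = 0.00386), LPXN, and OSBP, an oxysterol-binding protein (0.23, adjusted p = 0.0227). The OSBP call was lost in 7 of 13 alternatives, among them the removal of any single array. The median difference of the 30 genes was -0.01. It was also -0.01 over all 1230 measured genes of chromosome 11 other than the pair, which include the 30. Of the 30 genes, only 6 reached a mean log2 of 7, among them the called DTX4, LPXN and OSBP. Of all genes at that level 36.5% were called. Since most of the 30 were dim, their share of 13.3% says little about the region.

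**Figure D2:**
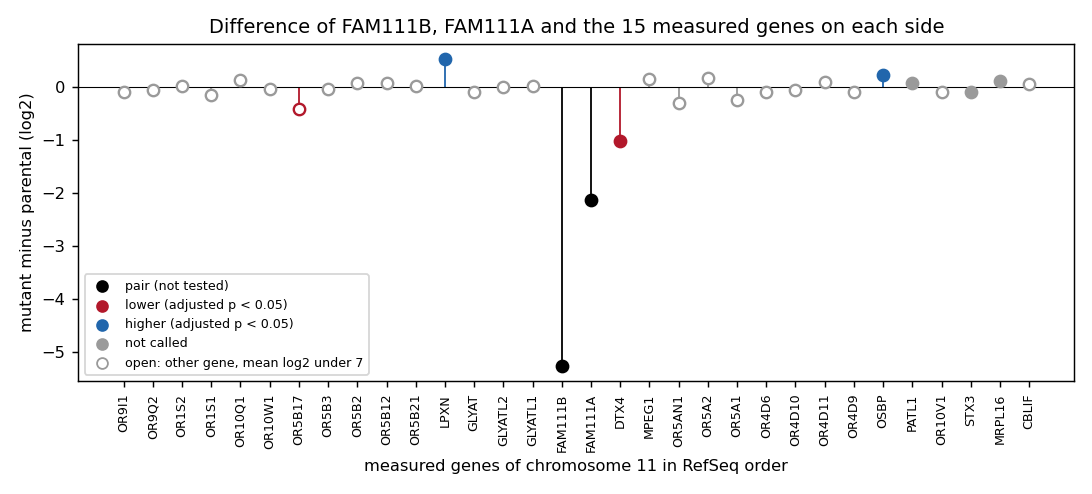
Mutant minus parental log2 difference (vertical axis) of FAM111B, FAM111A and the 15 measured genes on each side, in RefSeq order along chromosome 11. FAM111B (-5.26), FAM111A (-2.12) and DTX4 (-1.02) stand next to each other below all others, which lie between -0.41 and 0.53; filled points other than the pair have a mean log2 of at least 7, and colours mark calls at an adjusted p under 0.05.

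FAM111B belongs to the genes whose transcripts vary with the cell cycle, so genes of the same programme were listed. E2F factors switch on genes at the start of S phase, and the RB family and the DREAM complex repress them outside it. Of 46 measured genes that peak around the entry into S phase, 18 fell and 7 rose, and the median difference was -0.16. The share lower was 39.1%, against 15.6% of the 11208 genes whose mean log2 was 7 or more. Their median difference was 0.02, and 45 of the 46 genes were that bright. ATAD2, a chromatin regulator, showed the largest decrease of the list at -1.14 (adjusted p = 0.000133). TK1, thymidine kinase, and MCM4, a subunit of the replicative helicase, both fell by 0.88. BRCA1, a DNA repair gene, rose by 0.90 (adjusted p = 0.000762), and POLA2 and DNA2, which act in the synthesis and processing of lagging strands, by 0.35 and 0.33 (lost in 3 and 7 of 13 alternatives). Differences in the list ran from -1.14 to 0.90. Both FAM111A and FAM111B lay below all of these, which their selection on this contrast largely fixed in advance. Without any single array 12 to 16 of the 46 genes were called instead of 25. Calls leaned one way on some chromosomes, counted over genes at a mean log2 of 7 or more, of which 36.5% were called in all. Of 467 such genes on chromosome 9, 216 rose and 31 fell, and of 180 on chromosome 13, 28 and 46. Chromosome 17 had 88 higher and 231 lower of 712, and chromosome 18 had 26 and 59 of 158. Their median differences were 0.21, -0.01, -0.07 and -0.05, in that order. On chromosome 11, which holds FAM111A and FAM111B, 124 of 689 rose and 101 fell, with a median of 0.02. TK1 and BRCA1 lie on chromosome 17. Without genes of chromosomes 9, 13, 17 and 18, 15 of the remaining 41 fell, or 36.6%, and 6 rose. The 15.6% covers all chromosomes and was not recomputed without these.

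Of 35 measured genes of the later G2 and M phases, 7 rose and 5 fell, with a median of 0.07. ASPM, a spindle pole protein, rose by 0.48 (adjusted p = 0.00611), the mitotic kinase gene NEK2 by 0.37 and the kinetochore gene CENPF by 0.33. DLGAP5, which stabilises spindle microtubules, fell by 0.72 (adjusted p = 0.000588), HMMR, another spindle protein, by 0.66 and the phosphatase gene CDC25C by 0.54. The 34.3% called compare with 36.5% of all genes at a mean log2 of 7 or more.

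The regulators of the programme changed in both directions. Of 29 measured, 9 rose and 9 fell, with a median of -0.05. The share called was 62.1%, against 36.5% of genes at a mean log2 of 7 or more, a level that 28 of the 29 reached. E2F1, an activating E2F factor, had values of 9.65, 9.64 and 9.67 on the mutant arrays, against 10.06, 9.97 and 9.99 on the parental arrays, and fell by 0.35 (adjusted p = 0.00449). RB1, which restrains E2F factors, had values of 10.81, 10.75 and 10.78 on the mutant arrays, against 11.11 on each parental array, and fell by 0.33 (adjusted p = 0.00421); it lies on chromosome 13. CDK6, a kinase that inactivates RB, fell by 1.20 (adjusted p = 0.000133), MYBL2, a transcription factor of the cell cycle, by 0.60 and TFDP2, a partner of E2F factors, by 0.41. E2F5, a repressive E2F factor, and LIN9, a subunit shared by DREAM and the activating MuvB complexes, rose by 0.85 (adjusted p = 0.00103) and 0.73 (adjusted p = 0.00544), and the cyclin gene CCND3 by 0.38. CDKN1A, an inhibitor of cyclin-dependent kinases, rose by 0.23 (adjusted p = 0.0408), a call lost in 9 of 13 alternatives, including the removal of any single array.

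PCNA, the partner of FAM111A at the fork, differed by -0.04 between the lines. Its values were 11.20, 11.16 and 11.19 on the mutant arrays, against 11.18, 11.26 and 11.23 on the parental arrays, and the groups overlapped (adjusted p = 0.651). Of 27 measured genes of clamp loading and of PCNA-bound enzymes, 10 fell and 1 rose, with a median of -0.09. The share lower was 37.0%, against 15.6% of genes at a mean log2 of 7 or more, a level that all 27 reached. The large subunit of the clamp loader, RFC1, fell by 0.22 (adjusted p = 0.025), a call lost in 6 of 13 alternatives. RNASEH2B, a subunit of the enzyme that removes ribonucleotides from DNA, fell by 0.71 (adjusted p = 0.000846), and POLD4, a small subunit of DNA polymerase delta, by 0.64 (adjusted p = 0.000632). CDT1, which licenses replication origins, fell by 0.48. POLH, a translesion polymerase, rose by 0.73 (adjusted p = 0.000287). Without any single array 5 to 7 of the 27 genes were called instead of 11, and with the replicate number as a block 5 were.

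FAM111A also acts in the repair of DNA-protein crosslinks, where SPRTN is another protease of the replication fork. SPRTN had log2 values of 9.98, 10.04 and 9.98 on the mutant arrays, against 9.50, 9.57 and 9.49 on the parental arrays. It rose by 0.48 (adjusted p = 0.00153, and 9.7e-05 to 0.0147 over its alternatives). The difference of FAM111A has the opposite sign, but FAM111A was chosen for this contrast. Of 22 measured genes of this repair, 6 rose and 3 fell, with a median of 0.07, and the 40.9% called lie near the 36.5% of genes at a mean log2 of 7 or more. TOP2B, a topoisomerase that can become trapped on DNA, rose by 0.66 (adjusted p = 0.000989), and TOP2A by 0.33. PARP1, which senses DNA breaks, fell by 0.44 (adjusted p = 0.00164), and TOP1, whose trapped complexes FAM111A helps to clear, by 0.22 (adjusted p = 0.0281). NPLOC4, a cofactor of the unfolding enzyme VCP, fell by 0.24. The calls of TOP1 and NPLOC4 were each lost in 7 of 13 alternatives. Without any single array 4 to 6 of the 22 genes were called instead of 9, and with the array medians set equal 5 were.

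The protease genes on the lists used here showed no decrease of comparable size, which is a description only, since the pair was chosen for this contrast. ADAM19, a metalloprotease gene on neither list, differed by -2.09. Of 70 measured trypsin-like serine protease genes, 4 rose and 8 fell, with a median of -0.03 and a range of -1.06 to 1.10. The share called was 17.1%, against 25.9% of all genes, and 30 of the 70 reached a mean log2 of 7. PRSS3, a trypsinogen, fell by 1.06 (adjusted p = 0.000484), CFD, complement factor D, by 0.74 and ST14, the membrane protease matriptase, by 0.64 (adjusted p = 0.00115). PLAU, the urokinase plasminogen activator, rose by 1.10 (adjusted p = 0.000124), the complement protease gene C1R by 0.69 and the kallikrein gene KLK13 by 0.66. HTRA2 and TYSND1, proteases of mitochondria and peroxisomes with a related fold, differed by -0.13 (adjusted p = 0.178) and -0.02 (adjusted p = 0.905); they were picked after their values were seen. Of 34 intracellular proteases with mostly other folds, 6 rose and 6 fell, with a median of 0.00 and a range of -0.59 to 0.49, and the 35.3% called lie near the 36.5% of genes at a mean log2 of 7 or more. AFG3L2, a mitochondrial membrane protease, and CAPN1, a calpain, both fell by 0.59 (adjusted p = 0.00226 and 0.000493), and CASP8, an initiator caspase, by 0.37. Besides SPRTN, the SUMO proteases SENP6 and SENP7 rose, by 0.49 and 0.44 (adjusted p = 0.00349 and 0.0484), the SENP7 call being lost in 9 of 13 alternatives.

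Further lists concern processes in which FAM111 proteins have been studied. Of 29 nucleoporin genes 6 rose and 3 fell, with a median of 0.10. The share called was 31.0%, against 36.5% of genes at a mean log2 of 7 or more, a level that all 29 reached. NUP214 rose by 0.91 (adjusted p = 0.00016), NUP188 by 0.55 and the export factor gene GLE1 by 0.50. SEH1L fell by 0.84 (adjusted p = 0.000431), NUP85 by 0.38 and AAAS by 0.28 (lost in 4 of 13 alternatives). NUP214, NUP188 and GLE1 lie on chromosome 9, SEH1L on 18 and NUP85 on 17, and without those 4 chromosomes 3 of 22 nucleoporin genes rose and 1 fell; the part of the chromosomes in these counts was not tested. Of 12 subunits of RNA polymerase II 1 rose and 1 fell. The share called was 16.7%, against 36.5% of genes at a mean log2 of 7 or more, a level that all 12 reached. POLR2A, the largest subunit, differed by 0.37 (adjusted p = 0.00747) and POLR2J by -0.25 (adjusted p = 0.029, lost in 6 of 13 alternatives). Of 31 restriction factors against viruses 15 rose and 2 fell, with a median of 0.27. The share called was 54.8%, against 25.9% of all genes and 36.5% of those at a mean log2 of 7 or more, a level that 24 of the 31 reached. BST2, which tethers budding virus to the cell, rose by 3.14, APOBEC3H, a cytidine deaminase, rose by 1.32 (adjusted p = 0.000678), and SP100, a nuclear body protein, by 0.84 (adjusted p = 0.000879). SERINC5, which blocks retroviral entry, fell by 0.51 (adjusted p = 0.00172), and NSMCE2, a subunit of the SMC complex that silences viral DNA, by 0.28 (lost in 4 of 13 alternatives). FAM111A, itself a restriction factor, was lower, and its difference of -2.12 lay below the lowest of this list, -0.51. As FAM111A was chosen for this contrast, that order is a description only.

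**Figure D3:**
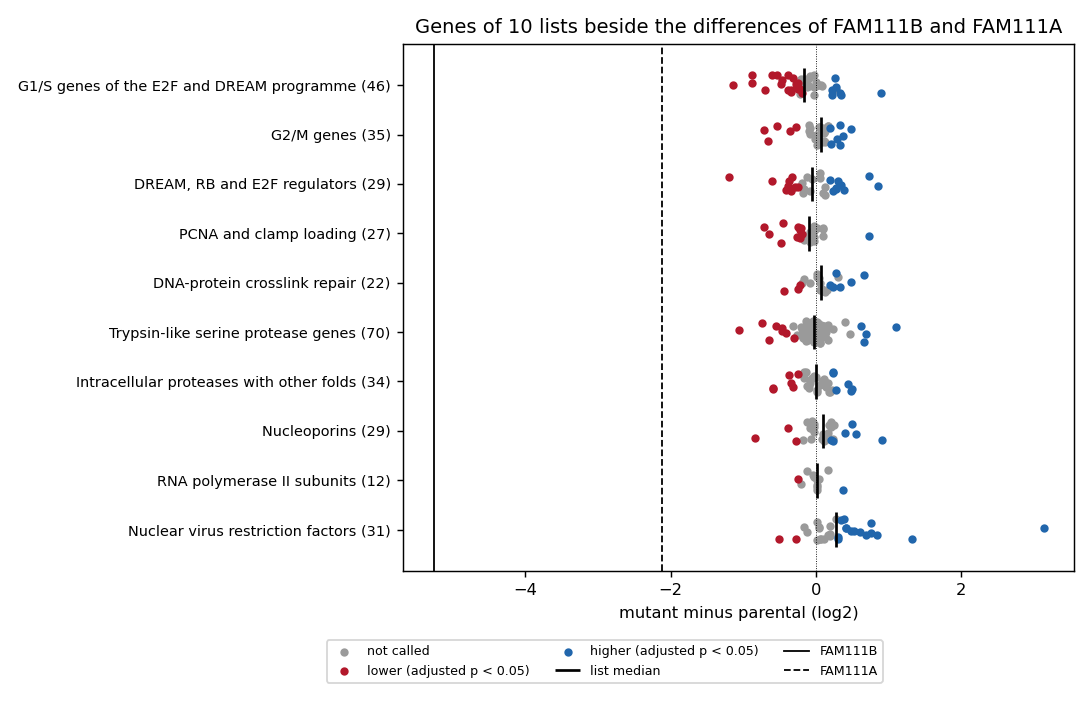
Mutant minus parental log2 difference (horizontal axis) of the measured genes of 10 lists (rows, number of genes in brackets), coloured by call at an adjusted p under 0.05, with the list median as a short bar. The vertical lines mark FAM111B (-5.26) and FAM111A (-2.12), and no gene of these lists lies as low as either. The pair was chosen for this contrast, so its place is a description only.

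The genes whose profile over the 6 arrays was nearest to each member were found by the root mean square difference, after each gene was centred on its own parental mean. Nearest to FAM111B were NRIP1 (0.14 log2 units), SQLE (0.24), SYT1 (0.26), EHF (0.28) and HBE1 (0.29). Their differences lay between -5.01 and -5.61, and EHF and HBE1 are the ones on chromosome 11. FAM111A had nearer matches. LIF, a cytokine gene, was nearest at 0.03, with log2 values of 7.21, 7.01 and 6.91 on the mutant arrays, against 9.08, 9.10 and 9.23 on the parental arrays. ADAM19 (0.08), MAN1A1 (0.10), INPP4B (0.11) and NT5E (0.11) followed, with differences of -2.04 to -2.09. The paralogs themselves were 2.22 log2 units apart. With 2 groups of 3 arrays, this measure mostly ranks genes by the size of their difference.

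The epithelial identity of the cells was checked with marker genes, of which the 3 named first were picked after their values were seen. EPCAM was bright in both lines, at 12.33 in mutant and 12.15 in parental cells (adjusted p = 0.0715), while VIL1 (5.76 in both) and CDH17 (4.23 in mutant, 4.26 in parental) were dim. Of 14 colon epithelial genes, 0 rose and 4 fell, with a median of -0.05, among them CDH1 at -1.36, KRT18 at -0.88 and KRT8 at -0.53. In this list 5 had an unadjusted limma p under 0.05. The 28.6% called lie near the 25.9% of all genes. The share lower, also 28.6%, compares with 15.6% of genes at a mean log2 of 7 or more, a level that 7 of the 14 reached. Of 11 leukocyte and 9 endothelial markers 0 were called by limma, with 1 and 0 at an unadjusted p under 0.05. Of all genes 25.9% were called, but only 2 of the 11 and 3 of the 9 reached a mean log2 of 7. Of 10 fibroblast markers 1 rose (PDGFRB at 0.27, adjusted p = 0.0322, lost in 7 of 13 alternatives) and 0 fell, or 10.0% called, and 1 of the 10 reached that level.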

How the data were processed

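The deposited values are log2 expression per probe set and array, which the authors made with RMA and Partek according to the submitters' processing notes. Versions and the genome build are not stated in the labels. Per the labels' protocols, 100 ng of total RNA was labelled with biotin. RMA makes array distributions alike, which removes any difference in total RNA per cell. The 33297 probe sets were used as deposited, 19460 of them with 1 gene symbol, and a gene with several was represented by the brightest. RefSeq (GRCh38.p14) gave gene order and the promoter windows.

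Mutant minus parental differences were tested with limma 3.58.1 in R 4.3.3 (lmFit and eBayes, two-sided, no covariates), with Benjamini-Hochberg adjustment over all probe sets and a threshold of 0.05. The fit was tested on simulated data. Python 3.11.15 served for summaries. The members, the 14 gene lists (372 of 396 genes measured) and the rule for naming genes were chosen with earlier results of these data known. The rule names the members, the 4 nearest measured genes on each side, up to 3 called genes per list and direction, PCNA, RFC1, E2F1, RB1 and CDKN1A whatever their values (a sixth such gene is not analysed here), and the 5 genes most like each member. Alternatives covered normalization, a filter at log2 of 6 on 3 arrays, single-symbol probe sets, an intensity trend, weighting of arrays, a block by replicate number and each array left out, and, added after the data were seen, lists without chromosomes 9, 13, 17 and 18. Arrays have no sequencing depth, and their small number limits the precision. Separate cultures are not stated, so p-values reflect only the spread among these arrays, which may be technical.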

Additional observations from a re-analysis of the deposited data

How the results depend on the processing

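Of 255 recomputed values for 19 results, 60 moved, all of them counts, and the differences of the pair kept their sign in every alternative run. Without any 1 array the differences of the pair were -5.39 to -5.12 for FAM111B, -2.20 to -2.06 for FAM111A and -3.28 to -3.05 for the change of FAM111B minus that of FAM111A. With the replicate number as a block these were -5.26, -2.12 and -3.14. Over all probe sets 6166 were called. Leaving out arrays gave 4037 (mutant replicate 2) to 4644, with 4109 without parental replicate 2, and the replicate block gave 4365. Deviations of same-numbered arrays correlated at r = 0.043, -0.013 and 0.003. Whether same-numbered arrays were handled together was not tested, and such values cannot settle it.

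List counts moved more, and the fits with fewer arrays or a block have fewer degrees of freedom by construction. With the block, calls were 5 instead of 11 for PCNA and clamp loading, 4 instead of 9 for crosslink repair, 14 instead of 25 for S phase entry, 7 instead of 12 for intracellular proteases, 1 instead of 2 for RNA polymerase II, 0 instead of 1 for fibroblast markers and 2 instead of 4 for genes next to the pair. Leaving out each array gave 5 to 7, 4 to 6, 12 to 16, 7 to 9, 1 to 2, 0 to 1 and 2 to 3 for these lists, and 10 to 14 instead of 18 for the regulators. Equal array medians gave 5 for crosslink repair. The filter on dim probe sets and the intensity trend each gave 19 for intracellular proteases, 16 instead of 9 for nucleoporins and 4 for RNA polymerase II, and single-symbol probe sets alone gave 16 and 4 for the last pair. Fibroblast markers had 2 calls with repeated quantile normalization, the filter, single-symbol probe sets or array weights, and leukocyte markers 1 with single-symbol probe sets or array weights. Without genes of chromosomes 9, 13, 17 and 18 (tried after seeing the data), nucleoporins had 4 calls and RNA polymerase II 1. For these shifts the cause was not tested.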

Other observations

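Stretches of lower genes like the one that holds FAM111B and FAM111A were counted along all chromosomes, over 18389 measured genes in RefSeq order; this count was chosen after the values of the pair were seen. Of 18364 pairs of neighbouring measured genes, 9 had both genes lower in mutant cells by at least 2 log2 units. The pair FAM111B and FAM111A was 1 of them, and on chromosome 11 HBE1 and its olfactory receptor neighbours OR51B4, OR51B2 and OR51B5 gave 3 more, with differences of -4.49 to -6.24. On chromosome 10 the genes MKX, ODAD2 and MPP7 differed by -2.44, -2.50 and -2.59. On chromosome 19 the zinc finger genes ZNF600, ZNF28 and ZNF468 differed by -2.16, -3.20 and -3.68, and on chromosome 7 MACC1 and ITGB8 by -2.80 and -2.49.

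At a size of 1 log2 unit, 13 of 18340 runs of 3 consecutive measured genes were lower throughout. The run of FAM111B, FAM111A and DTX4 was among them, and 7 of the 13 consisted of ZNF genes of chromosome 19. Runs can overlap, so they are not separate stretches. Those from ZNF577 to ZNF614 slide along the same genes, as do those from ZNF808 to ZNF83. The presence of FAM111B and FAM111A in these counts restates the contrast by which they were chosen.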
